A study of Mus musculus with 18 samples.

Results

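The genes described here are 44 genes of the G1/S transition and of the DNA replication machinery. They were chosen by name for their roles, with earlier results of these data known. Each was represented by its RefSeq transcript with the highest mean level, and all 44 were found among the 14797 genes of the mRNA sequencing table and among the 13918 genes of the RNAome long RNA table. They were grouped by role into origin licensing (5 genes), the MCM2-7 helicase (6), origin firing and helicase activation (8), the sliding clamp and its loader (6), polymerases and primase (8), Okazaki fragment maturation (2), the single-strand binding protein RPA (3), G1/S cyclins with E2F1 (4) and chromatin assembly factor 1 (2).

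The samples were 6 RNA samples of C57BL/6 mouse embryonic stem (ES) cells at passage 19 to 22, of which 3 were treated with 2.5 µM cisplatin (codes 8.3.3, 8.4.3 and 8.5.3) and 3 with the solvent DMSO (codes 8.4.16, 8.5.16 and 8.6.16). Cisplatin is a platinum drug that crosslinks DNA, and cells of both groups lacked HPRT, an enzyme of purine salvage. Cells of both groups had been kept on feeder cells and then on gelatin, and how long they were exposed was not known here. Each RNA sample was sequenced after a TruSeq mRNA preparation and as RNAome sequencing, in which total RNA depleted of ribosomal RNA is fragmented and ligated to small RNA adapters. The labels do not state whether a group's 3 samples were separate cultures, and p-values therefore describe the scatter among the samples at hand, part or all of which could be technical.

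In G1 the origin recognition complex, CDC6 and CDT1 load the MCM2-7 helicase onto origins. At the G1/S transition cyclin-dependent kinases and the CDC7-DBF4 kinase, with CDC45, MCM10 and the GINS complex, turn the loaded helicase into an active fork, at which primase and the polymerases copy both strands. Many of these genes are known targets of E2F factors, and ES cells are known for a short G1 phase and for cycling with weak control of that transition.

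Total counts per library were 20365963 to 31604098 in mRNA sequencing and 43404675 to 94373096 in RNAome sequencing. The 44 genes together held 75472 to 117679 counts per mRNA library. In RNAome sequencing they held 6359 to 13558 counts per cisplatin library and 2979 to 6223 per control library. Depth on these genes thus went with treatment in RNAome sequencing. Control 8.4.16 had the lowest count in both assays. Hprt was at 1.12 ± 0.0764 CPM in cisplatin cells and 0.93 ± 0.177 CPM in control cells (CPM is the count scaled to library size, SD, n = 3 each). The ES cell factor Pou5f1 was at 1198 ± 35.4 CPM in cisplatin cells and 1199 ± 13.6 CPM in control cells. Of 10 ES cell markers 7 were lower after cisplatin in mRNA sequencing (Nanog by a log2 fold change of -0.38), and the summed level of the list was 4751 to 4957 CPM in cisplatin libraries and 5479 to 5768 CPM in control libraries. Of 15 feeder fibroblast markers 11 were detectable enough to test, Lum, Dcn, Twist2 and Prrx1 were not, and only Fn1, which other cell types also make, was lower. The summed level of these 11 was 750.5 to 901.4 CPM in cisplatin libraries and 1022 to 1101 CPM in control libraries, and the part of either marker list in the results below was not tested.

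Of the 44 genes 35 had a promoter in the RefSeq promoter table (build GRCm38.p6, 250 bases before to 50 after the start site). An E2F-type motif, taken as TTTCCCGC, TTTGGCGC, TTTGCCGC or TTTCGCGC on either strand, was found in 13 of the 35 (37.1%). It was found in 2.26% of all 32851 promoters of the table and in 4.85% of the 10649 genes tested in mRNA sequencing that had one. The 13 were Cdc6, Cdt1, Gins3, Lig1, Mcm3, Mcm5, Mcm6, Mcm7, Orc1, Pola1, Pold1, Pole2 and Rfc3. The shorter motif TTTGAA of cell cycle-regulated promoters was found in 7 of 35, or 20% of the genes. It was found in 14.0% of the genes tested in mRNA sequencing that had a promoter, and in 17.9% of all promoters. The promoters of 5 genes that changed in mRNA sequencing are shown: Pola1, Mcm3 and Mcm6 fell and carry the motif, Gins3 rose and carries it, and Dbf4 fell and holds no match. Capitals mark the E2F-type motif, and each sequence is written 5′ to 3′ on the strand of its gene.
Pola1, chrX:93632106-93632405, reverse strand: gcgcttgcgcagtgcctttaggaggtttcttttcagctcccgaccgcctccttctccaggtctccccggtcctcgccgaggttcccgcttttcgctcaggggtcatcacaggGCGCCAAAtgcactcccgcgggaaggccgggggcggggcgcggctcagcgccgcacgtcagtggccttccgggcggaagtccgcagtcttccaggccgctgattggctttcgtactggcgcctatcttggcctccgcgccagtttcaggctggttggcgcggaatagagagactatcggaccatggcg
Mcm3, chr1:20820263-20820562, reverse strand: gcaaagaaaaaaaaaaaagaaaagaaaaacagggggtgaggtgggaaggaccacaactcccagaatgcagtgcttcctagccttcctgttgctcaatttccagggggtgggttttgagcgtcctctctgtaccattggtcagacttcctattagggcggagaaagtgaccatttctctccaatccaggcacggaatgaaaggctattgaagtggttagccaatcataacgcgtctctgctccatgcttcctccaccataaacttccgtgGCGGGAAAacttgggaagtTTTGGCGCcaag
Mcm6, chr1:128359656-128359955, reverse strand: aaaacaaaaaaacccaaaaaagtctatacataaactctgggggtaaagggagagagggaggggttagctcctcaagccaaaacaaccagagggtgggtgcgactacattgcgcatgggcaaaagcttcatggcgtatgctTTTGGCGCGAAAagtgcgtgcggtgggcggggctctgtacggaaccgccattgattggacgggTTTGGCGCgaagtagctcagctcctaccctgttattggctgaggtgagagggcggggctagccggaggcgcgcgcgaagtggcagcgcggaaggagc
Gins3, chr8:95633309-95633608, forward strand: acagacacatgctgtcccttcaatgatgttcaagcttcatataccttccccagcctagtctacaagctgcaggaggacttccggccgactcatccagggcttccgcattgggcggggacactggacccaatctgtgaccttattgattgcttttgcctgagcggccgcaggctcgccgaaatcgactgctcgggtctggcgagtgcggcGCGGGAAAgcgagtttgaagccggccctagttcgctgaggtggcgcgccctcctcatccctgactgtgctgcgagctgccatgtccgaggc
Dbf4, chr5:8422667-8422966, reverse strand: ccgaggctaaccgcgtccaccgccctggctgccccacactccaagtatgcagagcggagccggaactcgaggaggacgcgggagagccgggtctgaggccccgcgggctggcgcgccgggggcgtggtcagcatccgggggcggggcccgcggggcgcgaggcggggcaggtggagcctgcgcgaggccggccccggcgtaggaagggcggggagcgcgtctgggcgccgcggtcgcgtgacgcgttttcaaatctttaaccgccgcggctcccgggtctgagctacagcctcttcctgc
In Mcm6 the match at the first run of capitals is a pair of motifs on opposite strands that overlap. The motif was present in 3 of the 8 genes that fell and had a promoter in the table, in 1 of the 2 that rose, and in 9 of the 25 that did not pass the test. A match is a description of the letters and not evidence of a bound factor.

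In mRNA sequencing 9 of the 44 genes were lower after cisplatin and 4 were higher, while 31 did not pass the test (edgeR quasi-likelihood test, Benjamini-Hochberg adjusted p under 0.05 over 14082 genes). The genes that fell were 20.5% of the 44 and the genes that rose were 9.09%. Of all genes tested, 19.2% were lower and 18.0% were higher. The share that fell was near the background. All cisplatin libraries lay below all control libraries for 13 of the 44 genes (29.55%) and above them for 5 (11.36%). Of all genes tested, 23.85% lay below and 24.88% lay above in this way, so groups without overlap were common. The count that rose moved between alternatives: in edgeR it was 2 without cisplatin 8.3.3 or 8.4.3, 1 without cisplatin 8.5.3 or control 8.5.16, 0 without control 8.4.16, 6 without control 8.6.16 and 8 with a replicate block, and it was 2 in DESeq2. The largest falls were those of Pola1, Dbf4 and Prim2, and the rises were all smaller than 0.3 on the log2 scale. The median log2 fold change was -0.04 over the 44 genes and 0.01 over all genes tested. For the 31 genes that did not pass, log2 fold changes lay between -0.13 and 0.19 with SEs of 0.040 to 0.092. Bulk RNA cannot tell fewer cells in a cycle phase apart from less of a transcript per cell.

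**Figure D1:**
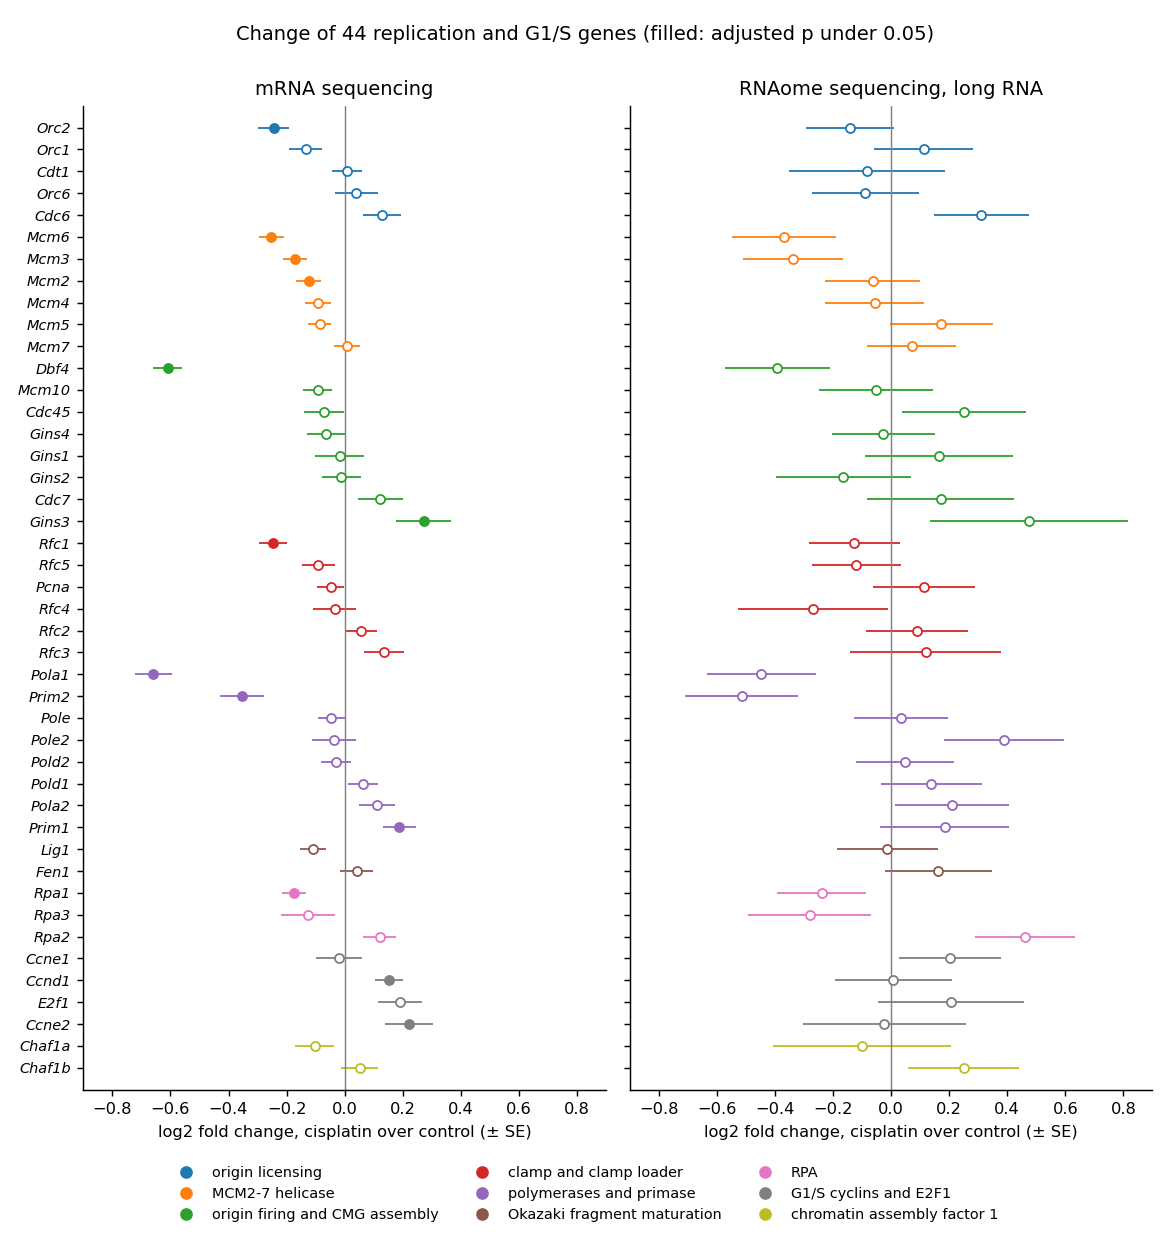
Log2 fold change, cisplatin over control, of the 44 genes in mRNA sequencing (left) and RNAome long RNA (right), ordered by role and coloured by role, with horizontal bars for the SE and filled points for adjusted p under 0.05. In mRNA sequencing 9 points are filled below 0 and 4 above it, and in RNAome sequencing no point is filled and the bars are wider.

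Of the 5 origin licensing genes 1 fell, none rose and 4 did not pass. Orc2, a subunit of the origin recognition complex, had 172, 157 and 163 CPM in the 3 cisplatin libraries (in the order 8.3.3, 8.4.3, 8.5.3, kept below), against 192, 187 and 205 CPM in the 3 control libraries (8.4.16, 8.5.16, 8.6.16). All cisplatin libraries lay below all control libraries, with a log2 fold change of -0.24 (SE 0.054, edgeR adjusted p = 0.00265). Its partner Orc1 had 107, 115 and 103 CPM in cisplatin libraries and 119, 117 and 121 CPM in control libraries, without overlap but short of the threshold (log2 fold change -0.13, edgeR adjusted p = 0.0755). The helicase loaders were close to level: Cdt1 was at 189 ± 3.07 CPM in cisplatin cells and 188 ± 8.93 CPM in control cells (SD, n = 3 each), and Cdc6 had a log2 fold change of 0.13 (SE 0.064). Orc6, the smallest subunit of the origin recognition complex, had 0.04.

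The MCM2-7 genes encode the 6 subunits of the replicative helicase. Of these, 3 fell, none rose and 3 did not pass, and the median log2 fold change was -0.11. Mcm6 had 391, 393 and 409.6 CPM in cisplatin libraries, against 471, 459.7 and 489.6 CPM in control libraries. Mcm3 had 429, 444 and 438 CPM in cisplatin libraries, against 487, 487 and 501 CPM in control libraries. The groups did not overlap for either gene, and the log2 fold changes were -0.25 for Mcm6 (SE 0.044, edgeR adjusted p = 0.000475) and -0.17 for Mcm3 (SE 0.041, edgeR adjusted p = 0.00455). Mcm2 had 495, 514 and 494 CPM in cisplatin libraries, against 542, 531 and 564 CPM in control libraries, also without overlap (log2 fold change -0.12, SE 0.043, edgeR adjusted p = 0.0344). The call of Mcm2 was lost, in edgeR, without cisplatin 8.3.3 (adjusted p = 0.0706), 8.4.3 (0.0667) or 8.5.3 (0.146) and without control 8.4.16 (0.0671) or 8.6.16 (0.0719). Mcm4, Mcm5 and Mcm7 had log2 fold changes of -0.09, -0.09 and 0.01, and none of the 3 passed.

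Among the 8 genes of origin firing and helicase activation, 1 fell, 1 rose and 6 did not pass. Dbf4, the regulatory subunit that activates the CDC7 kinase, had 136, 126 and 128 CPM in cisplatin libraries, against 201, 192 and 201 CPM in control libraries. Every cisplatin library was far below every control library, with means of 129.7 ± 5.41 CPM in cisplatin cells and 198 ± 5.04 CPM in control cells (SD, n = 3 each) and a log2 fold change of -0.61 (SE 0.051, edgeR adjusted p = 8.89e-07). Cdc7, the kinase itself, had 56, 48.6 and 47.4 CPM in cisplatin libraries and 47.7, 44.2 and 48.1 CPM in control libraries, groups that overlap (log2 fold change 0.12, edgeR adjusted p = 0.239). Gins3, a subunit of the GINS complex, had 22.7, 21.5 and 23.4 CPM in cisplatin libraries, against 19.4, 17.0 and 19.8 CPM in control libraries. All cisplatin values were above all control values, with a log2 fold change of 0.27 (SE 0.095, edgeR adjusted p = 0.0357). This call was lost in DESeq2 (adjusted p = 0.112), and in edgeR without cisplatin 8.3.3 (adjusted p = 0.0836), 8.4.3 (0.0529) or 8.5.3 (0.106) or without control 8.4.16 (0.0595) or 8.5.16 (0.155). The other GINS genes had log2 fold changes of -0.02 (Gins1), -0.01 (Gins2) and -0.06 (Gins4), and those of the helicase activators were -0.07 for Cdc45 and -0.09 for Mcm10.

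Of the sliding clamp and its loader, 1 of 6 genes fell and none rose. Rfc1, the large subunit of the loader that opens the PCNA ring, had 201, 212 and 194 CPM in cisplatin libraries, against 237, 243 and 241 CPM in control libraries, without overlap (log2 fold change -0.25, SE 0.048, edgeR adjusted p = 0.00108). The clamp gene Pcna had 444, 433 and 415 CPM in cisplatin libraries and 442, 428 and 467 CPM in control libraries, which overlap. Rfc2 to Rfc5, the small loader subunits, had log2 fold changes of 0.06, 0.13, -0.03 and -0.09.

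Among the 8 polymerase and primase genes 2 fell, 1 rose and 5 did not pass. Pola1, the catalytic subunit of DNA polymerase alpha, had 123, 122 and 118 CPM in cisplatin libraries, against 198, 205 and 171 CPM in control libraries. The cisplatin libraries were nearly equal and all lay below the lowest control, with means of 121 ± 2.50 CPM in cisplatin cells and 191 ± 17.7 CPM in control cells (SD, n = 3 each). The log2 fold change was -0.66 (SE 0.064, edgeR adjusted p = 3.22e-06), the largest fall of the 44 genes. Prim2, the large subunit of primase, had 43.5, 44.2 and 46.1 CPM in cisplatin libraries, against 50.9, 61.0 and 58.4 CPM in control libraries, without overlap (log2 fold change -0.35, SE 0.075, edgeR adjusted p = 0.00201). Prim1, the catalytic subunit of primase, moved the other way: it had 91.0, 89.1 and 91.6 CPM in cisplatin libraries, against 79.9, 76.5 and 82.1 CPM in control libraries. Its groups did not overlap (log2 fold change 0.19, SE 0.058, edgeR adjusted p = 0.0190), and its call was lost without cisplatin 8.5.3 (edgeR adjusted p = 0.0576) or control 8.4.16 (0.0535) or 8.5.16 (0.0891). Pola2, the accessory subunit of polymerase alpha, had a log2 fold change of 0.11 (SE 0.063) and did not pass. Of the 4 subunits of the primase-polymerase alpha complex, 2 thus fell, 1 rose and 1 did not pass. The leading and lagging strand polymerase genes Pole, Pole2, Pold1 and Pold2 lay between -0.05 and 0.06.

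Among the remaining roles, Rpa1, the large subunit of the single-strand binding protein RPA, had 403, 402 and 413 CPM in cisplatin libraries, against 447, 464 and 464 CPM in control libraries. The groups did not overlap (log2 fold change -0.17, SE 0.042, edgeR adjusted p = 0.00436), while Rpa2 and Rpa3, the smaller subunits, did not pass (0.12 and -0.13). Of the 4 G1/S genes 2 rose and none fell. Ccnd1, a D-type cyclin, had 253, 237 and 236 CPM in cisplatin libraries, against 215, 219 and 219 CPM in control libraries. Ccne2, a cyclin E, had 28.6, 26.4 and 27.0 CPM in cisplatin libraries, against 24.1, 22.7 and 23.7 CPM in control libraries. All cisplatin values exceeded all control values for both genes, with log2 fold changes of 0.15 (Ccnd1, SE 0.047, edgeR adjusted p = 0.0200) and 0.22 (Ccne2, SE 0.082, edgeR adjusted p = 0.0471). The call of Ccnd1 was lost in edgeR without cisplatin 8.3.3 (adjusted p = 0.104) or control 8.4.16 (0.0754). That of Ccne2 was lost without any single one of the 6 libraries (edgeR adjusted p = 0.0557 to 0.168), with a replicate block (0.0925), with RLE scaling (0.0538), with no filter on low counts (0.0611) and in DESeq2 (0.161). Ccne1, the other cyclin E, had a log2 fold change of -0.02, and E2f1, an activating E2F factor, had 0.19 (SE 0.075, edgeR adjusted p = 0.0607). Lig1 and Fen1, which process Okazaki fragments, had -0.11 and 0.04, and Chaf1a and Chaf1b, histone chaperone subunits, had -0.10 and 0.05, none of which passed. Of the 9 genes that fell, 8 kept their call in each of 14 alternative analyses and Mcm2 did not, while none of the 4 that rose did.

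**Figure D2:**
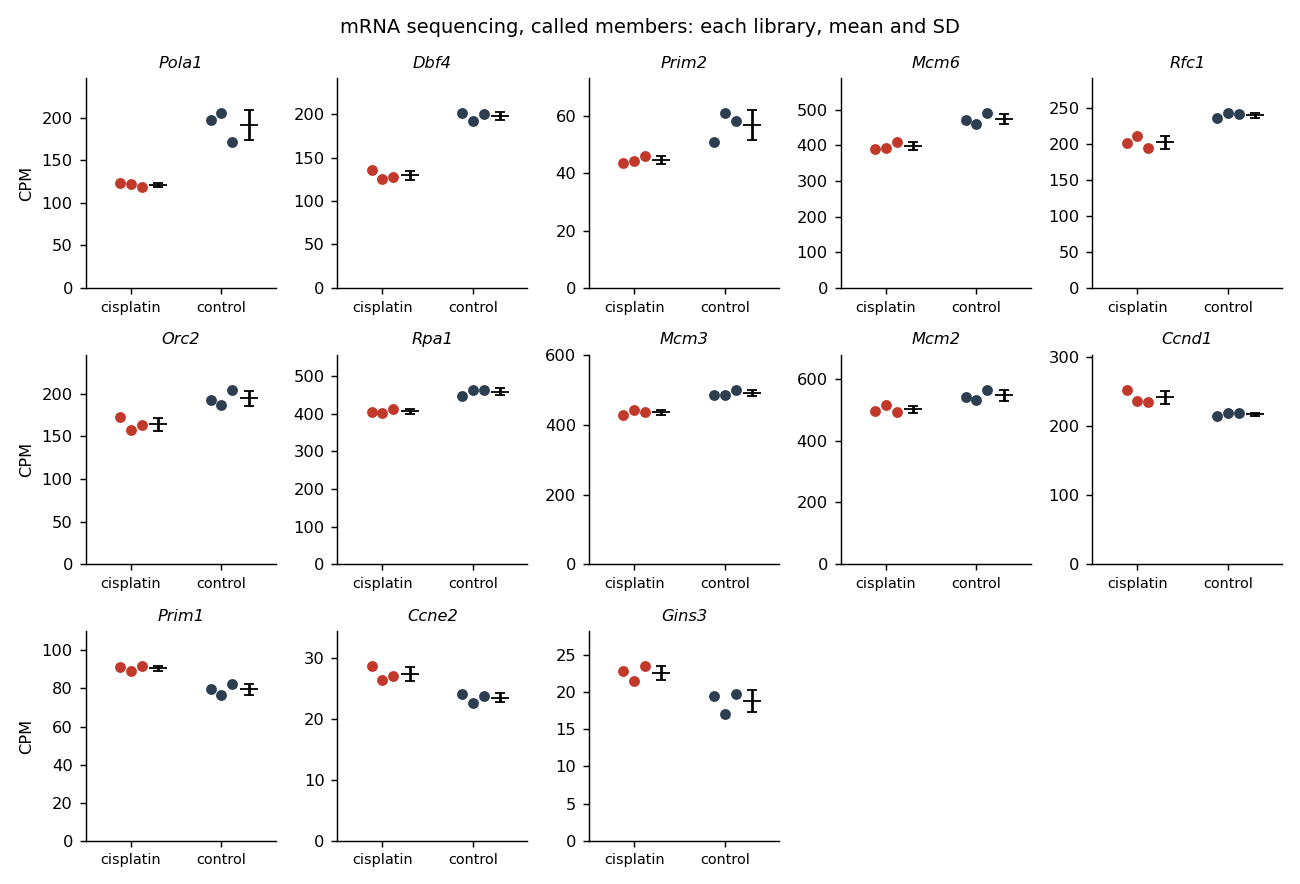
Level in CPM (axis from 0) of the 13 genes called in mRNA sequencing, with 1 point per library, cisplatin in red at left and control in dark blue at right, and the mean and SD beside each group. In each of the 13 panels the 3 cisplatin points lie on 1 side of the 3 control points, most widely for Pola1 and Dbf4. Such separation held for 24.88% (above) and 23.85% (below) of all 14082 genes tested, and these 13 were picked by their p.

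Levels were compared between genes only per length, as CPM per kb of annotated exon in mRNA sequencing. The length joins all annotated exons of a gene, while the counts are of 1 RefSeq entry. Genes with much annotated exon outside that entry therefore rank lower. In control cells Mcm5 was highest with 193 ± 4.91 and Pcna next with 186 ± 8.24, which did not differ beyond their SD (n = 3 each). Mcm3 followed with 164 ± 2.72 and Mcm2 with 162 ± 4.94, and all 6 helicase genes ranked among the first 8. Ccne2 was lowest with 6.73 ± 0.216, next to Gins3 with 7.77 ± 0.62. In cisplatin cells Mcm5 and Pcna again led, with 182 ± 1.66 and 179.6 ± 6.20, and Ccne2 was again lowest with 7.83 ± 0.327.

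RNAome sequencing is a separate library of the same RNA, in which these genes were shallower. None of the 44 genes passed the test in either direction. Of all 9977 genes tested 0.972% were higher and 1.05% were lower. Groups did not overlap for 6.82% (cisplatin above) and 9.09% (below) of the 44, beside 9.93% and 9.11% of all genes tested. At an unadjusted p under 0.05, 3 of the 44 were lower and 1 was higher by edgeR, and DESeq2 also called 0. The median log2 fold change was 0.02 over the 44 genes and 0.00 over all genes tested. The SE of a gene was 0.15 to 0.34 in RNAome sequencing and 0.040 to 0.095 in mRNA sequencing.

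The 5 genes with the smallest p were Rpa2, Prim2, Pola1, Dbf4 and Mcm6. Pola1 had 8.46, 9.06 and 10.8 CPM in cisplatin libraries, against 17.0, 11.4 and 10.9 CPM in control libraries, without overlap. Its log2 fold change was -0.45 (SE 0.19, edgeR adjusted p = 0.284), and that of Prim2 was -0.51 (SE 0.19, edgeR adjusted p = 0.224). Dbf4 had 17.7, 13.9 and 16.7 CPM in cisplatin libraries and 15.3, 23.3 and 23.9 CPM in control libraries, which overlap through control 8.4.16 (log2 fold change -0.39, edgeR adjusted p = 0.342). Mcm6 had -0.37 (edgeR adjusted p = 0.374). Rpa2, which had not passed in mRNA sequencing, had 16.7, 17.4 and 14.8 CPM in cisplatin libraries, against 8.88, 12.8 and 13.3 CPM in control libraries, without overlap but short of the threshold (log2 fold change 0.46, edgeR adjusted p = 0.221).

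Whether the effect of cisplatin differed between the assays was tested as an interaction, with RNAome minus mRNA as the sign, over 13070 genes. No gene of the 44 passed in either direction, and of all genes tested 0% were higher and 0% were lower by edgeR. At an unadjusted p under 0.05, 1 of the 44 was higher (Pole2, a subunit of polymerase epsilon, difference of log2 fold changes 0.42, SE 0.20, edgeR adjusted p = 0.833), and DESeq2 called 0 of the 44. With the RNA sample as a block, which the shared codes allow, 13 other genes were lower and still none of the 44. Those with the next smallest p were Rpa2 (0.34, SE 0.17), Orc1 (0.25, SE 0.16), Cdc45 (0.31, SE 0.20) and Mcm5 (0.27, SE 0.19). For Pola1 and Dbf4 the difference was 0.23 (SE 0.18) and 0.20 (SE 0.18), so the assays could not be shown to differ for the most strongly lowered genes.

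Gene span differed widely among the genes that fell. Pola1 spans 327.39 kb on chromosome X (90550106 to 90877494, build mm9) and Prim2 spans 215.98 kb on chromosome 1 (33510656 to 33726631), the longest genes of the list. Across the 44 genes the Spearman correlation between gene span and mRNA log2 fold change was -0.54, and it was -0.47 over the 42 genes without Pola1 and Prim2. Across the 11608 of 14082 tested genes with an annotated span it was -0.35. These are descriptions across genes, which share their libraries. Of the 6 genes of 40 kb or more (a limit chosen after the values were seen), Orc2, Rpa1, Rfc1, Prim2 and Pola1 fell and Pole did not pass, whereas 4 of the 38 shorter genes fell. Of all tested genes with a span, 38.1% of those of that length fell, against 11.3% of the shorter ones. Dbf4, with the second largest fall, spans 25.74 kb. In RNAome sequencing the correlation was -0.20 over the 44 genes, -0.09 without Pola1 and Prim2, and -0.26 over 8160 genes.

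**Figure D3:**
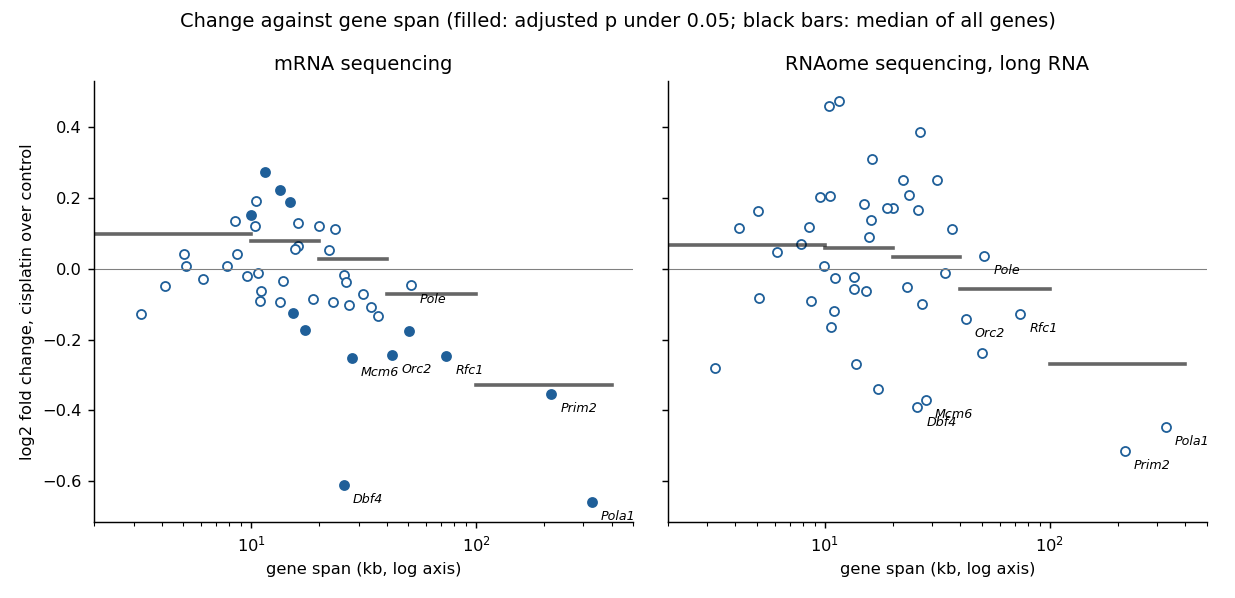
Log2 fold change, cisplatin over control, of the 44 genes (points, filled for adjusted p under 0.05) against gene span in kb on a log axis, in mRNA sequencing (left) and RNAome long RNA (right), with black bars for the median of all tested genes in 5 ranges of span. The medians of all genes step down with span, from 0.10 under 10 kb to -0.33 at 100 kb or more in mRNA sequencing. There Pola1 and Dbf4 lie below the bar of their range, but not they alone. The median of the listed genes is below the bar in each of the 5 ranges, from 0.008 under 10 kb to -0.51 at 100 kb or more.

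The tables also count genomic regions, most of which coincide with annotated introns and so cover RNA that is not yet spliced, or other transcripts there. Regions inside 1 gene were summed per gene. In mRNA sequencing 41 of the 44 genes could be tested, of which 2 were lower and 4 were higher, against 6.55% lower and 7.76% higher of all 8722 genes tested. Dbf4 had 70.8, 65.7 and 72.8 CPM of region counts in cisplatin libraries, against 93.7, 98.6 and 90.9 CPM in control libraries, and Pola1 had 64.4, 64.6 and 58.1 CPM, against 71.9, 97.6 and 85.2 CPM in control libraries. Neither gene overlapped between groups, and the log2 fold changes were -0.44 for Dbf4 (SE 0.10, edgeR adjusted p = 0.00212) and -0.45 for Pola1 (SE 0.11, edgeR adjusted p = 0.00439). Region groups did not overlap for 17.07% (cisplatin above) and 7.32% (below) of the 41, beside 15.55% and 13.9% of all genes tested. For Pola1, 93.8% of the counts lay in 1 region of 67.79 kb that also holds another annotated gene. Without such regions the log2 fold change was -0.55 and the call was lost (edgeR adjusted p = 0.351), and without control 8.5.16 it was -0.34 (adjusted p = 0.0791).

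The region counts that rose were those of Prim1, Orc6, Cdc7 and Pola2. Prim1 had 50.8, 57.2 and 59.2 CPM of region counts in cisplatin libraries, against 43.7, 34.3 and 43.5 CPM in control libraries (log2 fold change 0.47, SE 0.13, edgeR adjusted p = 0.0106). Orc6 had 63.6, 49.1 and 65.7 CPM in cisplatin libraries, against 37.3, 41.8 and 50.1 CPM in control libraries, which overlap (0.45, SE 0.13, edgeR adjusted p = 0.0192). Cdc7 and Pola2 had log2 fold changes of 0.43 (SE 0.14, edgeR adjusted p = 0.0288) and 0.30 (SE 0.10, edgeR adjusted p = 0.0481). Of these 4 genes only Prim1 had also risen as a transcript, and without control 8.5.16 none of the 4 passed (edgeR adjusted p = 0.116 for Prim1, 0.0675 for Orc6, 0.0997 for Cdc7 and 0.242 for Pola2). Prim1 was also lost without cisplatin 8.4.3 (0.0571) or 8.5.3 (0.0541), Orc6 without cisplatin 8.3.3 (0.0798) or 8.5.3 (0.108) or control 8.4.16 (0.109), and Cdc7 without cisplatin 8.3.3 (0.245) or control 8.6.16 (0.0943). Pola2 was lost without any single library except control 8.4.16 (edgeR adjusted p = 0.0766 to 0.242). Its call was also lost without regions that overlap another gene (edgeR adjusted p = 0.0530) and with RLE scaling (0.0525).

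Several transcripts that fell had region counts close to level, but the difference between a transcript and its regions was not tested. Mcm6 was at 32.8 ± 2.73 CPM of region counts in cisplatin cells and 32.9 ± 1.14 CPM in control cells (SD, n = 3 each), with a log2 fold change of -0.01 (SE 0.14), and Orc2 had 0.03 (SE 0.14). Prim2 had 0.01 (SE 0.074), with 96.3% of its counts in 1 intron (33537386 to 33541526). Prim2 regions held 1529 to 2378 counts per library, above the 466 to 874 counts of the Prim2 transcript. What RNA gave these region counts was not tested, so they may not describe unspliced Prim2 RNA. Rpa1 had -0.18 (SE 0.11) and Rfc1 had 0.26 (SE 0.17), neither of which passed. In RNAome sequencing 36 of the 44 genes could be tested on regions and none passed by edgeR, against 0.723% higher and 0.369% lower of 6226 genes. At an unadjusted p under 0.05, 2 were higher, Mcm10 (log2 fold change 0.71, SE 0.26, edgeR adjusted p = 0.223) and Mcm7 (0.62, SE 0.28, edgeR adjusted p = 0.341). The genes with the next smallest p were E2f1 (0.55), Rfc4 (-0.47) and Mcm2 (0.57). Pola1 and Dbf4, whose regions fell in mRNA sequencing, had -0.19 (SE 0.19) and -0.25 (SE 0.19) in RNAome regions.

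**Figure D4:**
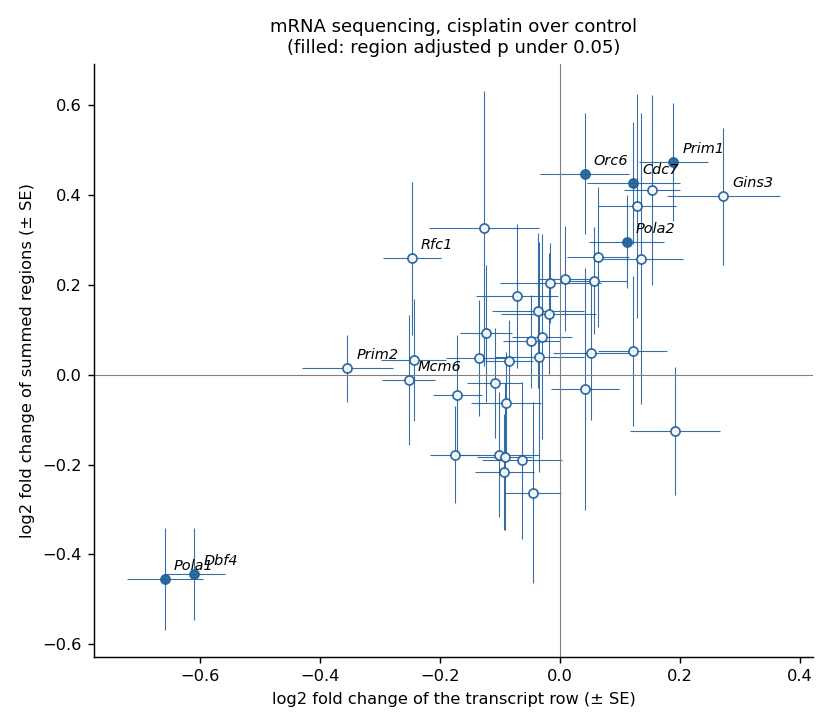
Log2 fold change, cisplatin over control, of the summed regions inside a gene (vertical) against that of its transcript (horizontal) for the 41 genes with regions tested in mRNA sequencing, with bars for the SE and filled points where the regions had an adjusted p under 0.05. Pola1 and Dbf4 are the lowest on both axes, and Prim2, Mcm6, Orc2 and Rfc1 are among those low on the horizontal axis alone. The difference between the axes was not tested.

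A list of 66 related genes outside the 44, also chosen with earlier results known, was examined for comparison. In mRNA sequencing 65 could be tested, of which 18 were lower (27.7%) and 10 were higher (15.4%), beside 19.2% and 18.0% of all genes tested. Of the other G1/S regulators 6 fell and 6 rose of 26. Cdkn1a, which encodes the p21 inhibitor of cyclin-dependent kinases, had 66.7, 78.3 and 82.9 CPM in cisplatin libraries, against 30.7, 36.8 and 33.6 CPM in control libraries (log2 fold change 1.16, SE 0.090, edgeR adjusted p = 5.53e-07). Rbl2, an RB-like pocket protein that represses E2F targets, rose by 1.18 on the log2 scale (SE 0.13), while the G1 kinase gene Cdk6 fell by 1.10 (SE 0.10) and the activator E2f3 fell by 0.44 (SE 0.065).

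Of 13 other origin genes 5 fell and 1 rose. Mcmbp, an MCM-binding protein, fell by 0.35 on the log2 scale, Mcm9 fell by 0.52 and Mtbp fell by 0.30, while the helicase gene Recql4 rose by 0.33. Of 17 other fork genes 3 fell and 3 rose. The topoisomerase genes Top1 and Top2a fell by 0.67 (SE 0.056) and 0.32 (SE 0.039) on the log2 scale, whereas Pold4, a small subunit of polymerase delta, rose by 1.12 (SE 0.20) and the nuclease gene Dna2 rose by 0.22. Of 9 other chromatin replication genes 4 fell and none rose: the histone chaperones Nasp (-0.27), Asf1a (-0.35) and Supt16 (-0.19), and Uhrf1 (-0.16), which recognizes hemimethylated DNA. In RNAome sequencing 1 of 63 was lower (1.59%) and 3 were higher (4.76%), beside 1.05% and 0.972% of all genes tested, with log2 fold changes of 1.56 for Rbl2 (SE 0.30, edgeR adjusted p = 0.00703), 1.30 for Cdkn1a (SE 0.26, edgeR adjusted p = 0.00754), 1.04 for Fbxw7, a ubiquitin ligase subunit that targets cyclin E (SE 0.26, edgeR adjusted p = 0.0388), and -1.17 for Cdk6 (SE 0.28, edgeR adjusted p = 0.0338).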

How the data were processed

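The authors deposited whole-number read counts per feature, without normalization, for 6 mRNA and 6 RNAome libraries; per the submitters' processing notes, Bowtie, TopHat, edgeR and build mm9 were used, and the counting rule and its use of strand were not known here. The small RNA tables were not used here. RefSeq entries were given symbols through a RefSeq table of assembly GRCm38.p6 (18274 of 18943 in mRNA, 17133 of 17787 in RNAome), and 1 entry was kept per gene: NM entries before NR, entries in both tables before others, then the highest mean level. Of the 44 genes, 10 had several NM entries. Regions were assigned to genes by GENCODE vM1 on NCBIM37, the assembly of mm9 (29105 regions inside 1 gene in mRNA, 27581 of them annotated introns; 47553 and 45432 in RNAome).

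The tests used edgeR 4.0.16 under R 4.3.3 (TMM scaling, filterByExpr, two-sided quasi-likelihood test, Benjamini-Hochberg threshold 0.05 over all genes tested), each assay alone, and the assay difference as an interaction over 12 libraries. CPM used the TMM-scaled total of the tested gene entries, or of the tested region sums for regions. SE is the size of the log2 fold change over the root of its F statistic. Alternatives were DESeq2 1.42.0, RLE scaling, other filters, the abundance tables that the authors also deposited, other choices of entry, a replicate block, and leaving out each library. The fits were tested on simulated counts. All 44 genes were reported, those called with the value of each library; where fewer than 5 were called in an assay the 5 with the smallest p were named, and up to 4 called genes per companion list. Spans and exon lengths come from GENCODE vM1 and promoters from RefSeq. The genes and lists were chosen with earlier results of these data known.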

Additional observations from a re-analysis of the deposited data

How the results depend on the processing

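In mRNA sequencing the count of lower genes among the 44 was 8 to 9 without any single library, against 9 with all of them. The count of higher genes was 4, and it was 0 to 6 without single libraries, 2 in DESeq2 and 8 with a replicate block on the shared first parts of the sample codes. Those parts are only shared numbers: the deviations of same-numbered samples correlated at 0.121 and 0.156 in mRNA sequencing and at -0.092 and 0.084 in RNAome sequencing, with no label that ties them. Over all genes in RNAome sequencing, higher calls were 97, with 57 in DESeq2 and 40 to 91 without single libraries, and lower calls were 105, with 38 to 124 without single libraries. For the assay difference, 0 genes were higher and 0 lower, with 13 lower under the replicate block on the sample code, 2 higher and 43 lower in DESeq2, and 0 to 2 higher and 0 to 30 lower without single libraries. For RNAome regions, higher calls were 45 (14 to 40 without single libraries) and lower calls 23 (5 to 27). For mRNA regions, the 44 genes held 2 lower calls, with 1 when regions that overlap another gene were left out and 1 to 2 without single libraries, and 4 higher calls, with 0 to 3 without single libraries. Lower calls over all genes were 571, with 356 to 536. The cause of these differences was not tested. For the 19 gene results that were called, 197 of 242 alternative values kept the call, 45 fell short of the threshold in the same direction and 0 changed sign. The 15 named results that were not called stayed so in all 166 values, which says nothing of their stability. The shallowest RNAome library held 2979 counts on the 44 genes. Overlapping transcripts and other genes within introns cannot be told apart in region counts.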

Other observations

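Rpa3, the smallest subunit of RPA, stood apart in its level between assays. Its RNAome CPM was 62.5% of its mRNA CPM, whereas the median of the 44 genes was 8.26% and the next highest, Gins4, had 17.0%. Rpa3 is the shortest of the 44 genes, at 3.24 kb. The next shortest, Pcna (4.15 kb), Fen1 (5.04 kb) and Cdt1 (5.11 kb), had 13.9%, 5.77% and 2.58%. Whether the ratio goes with gene length was not tested.

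In RNAome sequencing most counts of regions inside Mcm7 lay in 1 region of 0.12 kb on chromosome 5 (138606633 to 138606750, build mm9), which fills the gap between the microRNA genes Mir25 (138606549 to 138606632) and Mir93 (138606751 to 138606838), both inside Mcm7 on the same strand. It was at 15.0, 11.6 and 21.4 CPM of region counts in cisplatin libraries and 2.83, 14.6 and 12.2 CPM in control libraries. The groups overlap, since control 8.5.16 lay above cisplatin 8.4.3, and control 8.4.16, the library with the fewest counts on the 44 genes, was the lowest. In mRNA sequencing the region held 4 to 9 counts per library. No difference between groups passed the test for Mcm7 regions.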
